A study of Mus musculus with 4 samples.

Results

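The genes described here are 8 genes of the Schwann cell and glial lineage, Sox10, Foxd3, Ngfr, Erbb3, Gfra3, Cdh19, S100b and Mbp, measured in mouse cells cultured from the dermal papilla (DPCs) and from the dermal sheath (DSCs). They are the rows of the deposited count table that carry these gene names, 8 of 51826 rows. They were chosen by their measured counts in these same 4 libraries, which were lower at high passage for most of them, so their passage differences are given as a description and are used as evidence for nothing. Of the 8, 7 had a mean count of at least 10 over the 4 libraries and were among the 16734 genes compared, while Gfra3 had a mean count of 0.5 and was not. A gene that passes this filter through its low-passage counts alone must be lower at high passage, and Cdh19, Sox10, Foxd3, Ngfr and Erbb3 had nearly all of their counts there.

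DPCs come from the mesenchymal core of the hair bulb, and DSCs from the connective tissue sheath that surrounds the follicle. Both were grown from the vibrissa (whisker) follicles of EGFP-transgenic C57BL/6J mice aged 5 to 6 weeks, labelled WT in genotype, and the promoter of the transgene and the number of animals behind each library were not given in the sources used here. DPCs were explant outgrowths of papillae pipetted free after collagenase, and DSCs came from sheaths digested with collagenase, with no sort by a surface marker described, so that both cultures could hold other cells of the follicle. Cells at passage 3 (low passage) and passage 9 (high passage) were sequenced as 1 library for each combination of cell type and passage, which gave 4 libraries without replicates, and all of them were grown in DMEM with serum.

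Schwann cells are the glia of peripheral nerves. They derive from the neural crest, wrap the axons that reach the skin, and the whisker follicle is among the most densely innervated structures of the body. The transcription factor SOX10 is needed for the whole lineage from neural crest to mature glia. FOXD3 keeps neural crest cells undifferentiated, and neuregulin from axons, read by ERBB3 with its partner ERBB2, keeps Schwann cell precursors alive. Cells that lose contact with axons stop making myelin and return to an immature state, in which NGFR is high and myelin genes are low.

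RefSeq promoters were at hand for 3 of the 8 genes, Ngfr, Foxd3 and S100b, and those of Cdh19, Sox10, Erbb3, Mbp and Gfra3 were not printed. The 250 bases before each start are shown because these genes differed in what remained at high passage: Ngfr and Foxd3 had no count in either high-passage library, and S100b kept counts in both. The sequences run 5′ to 3′ on the strand of the gene (RefSeq, build GRCm38.p6), and capitals mark the matches to the motifs searched on both strands, the GC box (GGGCGG), the CCAAT box (CCAAT), the E-box CACGTG, the cyclic AMP response element TGACGTCA, the Sox core ACAAAG and the TATA box TATAAA. No match overlapped another. The windows are chr11:95587699-95587948 on the minus strand for Ngfr, chr4:99656049-99656298 on the plus strand for Foxd3 and chr10:76253586-76253835 on the plus strand for S100b. The RefSeq start of Ngfr lies inside the gene bounds given below, so the end of its window, with the GC box nearest the start, overlaps the gene. That of S100b lies before its gene bounds.
Ngfr: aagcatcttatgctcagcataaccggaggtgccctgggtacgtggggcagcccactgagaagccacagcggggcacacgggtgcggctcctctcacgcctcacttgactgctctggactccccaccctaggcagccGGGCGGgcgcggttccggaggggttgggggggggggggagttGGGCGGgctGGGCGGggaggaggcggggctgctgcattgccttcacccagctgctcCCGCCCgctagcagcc
Foxd3: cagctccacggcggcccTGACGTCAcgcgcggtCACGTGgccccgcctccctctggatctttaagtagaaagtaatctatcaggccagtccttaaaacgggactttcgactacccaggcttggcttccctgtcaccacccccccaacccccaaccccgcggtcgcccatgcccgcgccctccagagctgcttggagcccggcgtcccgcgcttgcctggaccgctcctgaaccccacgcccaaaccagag
S100b: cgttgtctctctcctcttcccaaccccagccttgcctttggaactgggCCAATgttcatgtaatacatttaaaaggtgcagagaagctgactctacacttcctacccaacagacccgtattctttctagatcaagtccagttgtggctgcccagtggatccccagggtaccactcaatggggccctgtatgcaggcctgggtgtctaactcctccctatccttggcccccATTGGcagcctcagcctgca
The Ngfr window held 4 GC boxes, which begin 114, 72, 63 and 16 bases before the start, with a GC content of 70.4% and 16 CpG dinucleotides. The Foxd3 window had a GC content of 65.6% and 21 CpG dinucleotides, with the E-box at 217 and the response element at 233 bases before the start. The S100b window was poorer in CpG, with 2, a GC content of 53.6%, and CCAAT boxes at 202 bases on the gene's strand and at 20 bases on the other strand. Over 32851 such windows of 27025 genes the median GC content was 52.4% and the median number of CpG dinucleotides was 6. A GC box was present in 32.7% of all windows, a CCAAT box in 33.8%, the E-box in 6.02% and the response element in 1.55%. The Sox core, in 16.5% of all windows, and the TATA box, in 12.4%, were in none of the 3. These are matches of letters and not measured binding.

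The total count per library lay between 34981284 and 47604059, so that a count of 0, which allows up to 3 counts, corresponds to at most 0.0658 to 0.0836 CPM, the unit of a count scaled by the size of its library. Library sizes were first corrected for composition with TMM factors. Genes with 2 counts were 2 to 3 times as many as genes with 3 in each library (1339 against 583 in low-passage DPCs), which can come from counting each mate of a pair, in which case the limit is 6 counts and the lower bounds on folds below are smaller by a factor of 2. Fold changes are log2 differences between 2 libraries, a gene was called lower or higher at a 4-fold difference, and the interval in parentheses is the exact 95% Clopper-Pearson interval, which covers counting error only and compares 2 libraries rather than 2 conditions. A fold given as "at least" sets the library at 0 to 3 counts and takes the higher count as exact, so it leaves out the counting error of the higher count. With 1 library per group no difference below has a replicate check, and passage cannot be told apart from when each library was made. In bulk RNA, fewer cells of a type and less RNA per cell cannot be told apart. Mesenchymal markers were abundant in all 4 libraries, at a summed 7464 to 27648 CPM over 9 listed genes, with Col1a1, Col1a2, Vim, Pdgfrb and Pdgfra at 4594 counts or more in every library, while Lum, at 0 in high-passage DPCs and low-passage DSCs, was the one listed gene absent from a library.

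The question set by the passage comparison was how long culture changed the cells of the papilla and the sheath. The 8 genes together held 506 counts in low-passage DPCs and 132 in high-passage DPCs, which corresponded to 13.8 and 3.68 CPM. In DSCs they held 1266 counts at low passage and 410 at high passage, or 33.4 and 9.00 CPM. The log2 ratio of the sums was -1.90 (-2.19 to -1.62) in DPCs and -1.89 (-2.06 to -1.73) in DSCs. The sums changed in makeup as well as in size. Mbp and S100b supplied 50.8% of the counts in low-passage DPCs and all of them in high-passage DPCs, and their share in DSCs was 34.4% at low passage and 97.8% at high passage. Without Ngfr the log2 ratios were -1.42 in DPCs and -1.08 in DSCs.

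**Figure D1:**
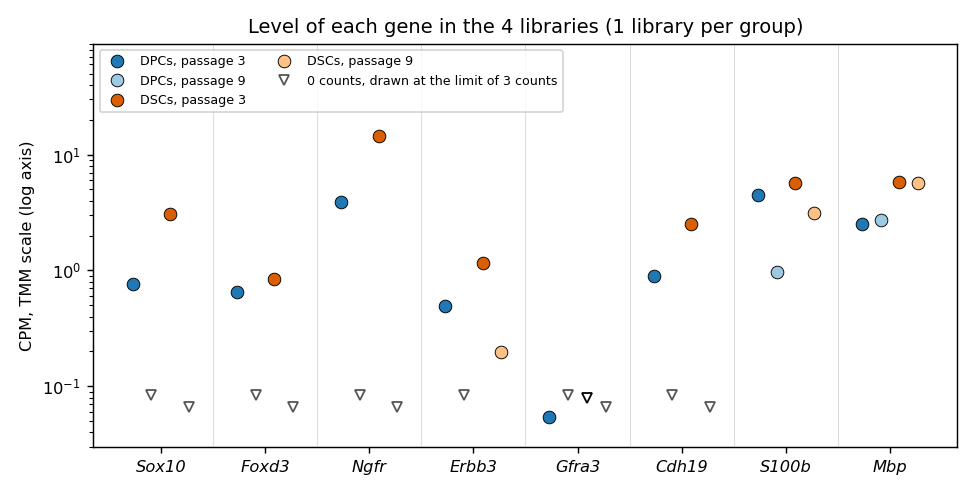
The level of each gene in the 4 libraries in TMM-scaled CPM on a log axis, 1 point per library, with open triangles at the limit of 3 counts where a library had none. Ngfr, Sox10, Foxd3 and Cdh19 have filled points at passage 3 only and open triangles at passage 9, whereas the Mbp points lie between 2.53 and 5.78 CPM at both passages.

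Per length and depth, as deposited FPKM (fragments scaled by gene length and library depth), the order of the genes differed between the libraries. In low-passage DSCs Ngfr (3.61 FPKM) and S100b (3.31) stood first, and their counting intervals overlapped. Mbp (1.20) and Sox10 (0.972) came next with overlapping intervals, then Cdh19 (0.551), and Foxd3 (0.313) and Erbb3 (0.165) last, again overlapping. In low-passage DPCs S100b (2.76 FPKM) stood first, apart from Ngfr (1.04), and Mbp followed at 0.628. Sox10 (0.258), Foxd3 (0.250) and Cdh19 (0.206) could not be ordered within their intervals, and Erbb3 stood at 0.0728. Only 2 of the 8 were left to order in high-passage DPCs, Mbp (0.679 FPKM) and S100b (0.589), with overlapping intervals. In high-passage DSCs the order was S100b (1.80), Mbp (1.15) and Erbb3 (0.0265), each apart from the next.

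At the 4-fold threshold, 6 of the 7 genes compared were lower in high-passage than in low-passage DPCs, all but Mbp, where 4.36% of all 16734 genes were. In DSCs 5 of the 7 were lower, all but S100b and Mbp, where 1.16% of all genes were. None was higher, against 5.58% of all genes in DPCs and 2.67% in DSCs. Both counts are fixed in large part by how the genes were chosen. The counting interval lay below 0 for 6 of 7 in each cell type, against 37.8% of all genes in DPCs and 32.9% in DSCs. The 5 genes called lower in both cell types were Ngfr, Cdh19, Sox10, Foxd3 and Erbb3, and 85 genes in all (0.508%) were called lower in both.

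Of the transcription factors, Sox10 (ENSMUSG00000033006, chr15:79154913-79164490, minus strand, GRCm38) had 28 counts in DPCs at low passage and 0 at high passage, and 116 and 0 in DSCs. Both low-passage libraries were above both high-passage libraries. With passage it was at least 9.10-fold lower in DPCs and at least 46.5-fold lower in DSCs. Foxd3 (ENSMUSG00000067261, chr4:99656299-99658622, plus strand), a gene of a single exon, had 24 and 0 counts in DPCs and 32 and 0 in DSCs. It was at least 7.80-fold lower in DPCs and at least 12.8-fold lower in DSCs, and its low-passage counts were the most alike of the 4 genes that ended at 0. A miRNA gene, Gm23366, with 0 counts in every library, covers 89 of its 2324 exon bases, or 3.83%. No other member shared exon bases with another gene.

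Of the receptors, Ngfr (ENSMUSG00000000120, chr11:95568818-95587735, minus strand) encodes the low-affinity neurotrophin receptor p75, a surface marker of neural crest stem cells and immature Schwann cells. It had 144 counts in low-passage DPCs and 544 in low-passage DSCs, and 0 in both high-passage libraries. It was at least 46.8-fold lower in DPCs and at least 218-fold lower in DSCs, or at least 23.4-fold and 109-fold if both mates were counted. Erbb3 (ENSMUSG00000018166, chr10:128567523-128589652, minus strand), the neuregulin receptor, had 18 counts in DPCs at low passage and 0 at high passage, and 44 and 9 in DSCs. It was at least 5.85-fold lower in DPCs. In DSCs it fell by 2.28 on the log2 scale (-3.77 to -1.50), and it was the one gene called lower in DSCs that still had counts there. Gfra3 (ENSMUSG00000024366, chr18:34689903-34720387, minus strand), the artemin receptor subunit that signals through RET, had 2 counts in low-passage DPCs and 0 in the other 3 libraries. Its presence cannot be told from background at this depth, and no fold is given.

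Cdh19 (ENSMUSG00000047216, chr1:110888326-110977584, minus strand) encodes a cadherin found on Schwann cell precursors and glia of the peripheral nerve. It had 33 counts at passage 3 and 0 at passage 9 in DPCs, and 95 and 0 in DSCs, and the low-passage and high-passage libraries did not overlap. The gene was at least 10.7-fold lower in DPCs and at least 38.1-fold lower in DSCs. The 4 genes Ngfr, Sox10, Cdh19 and Foxd3 thus had counts at passage 3 and none at passage 9 in both cell types. Of all genes compared, 10 (0.0598%) were at 0 in both high-passage libraries and above 3 counts in both low-passage libraries, and these 4 are among them by the choice of the group. The other 6 were Col15a1, Heyl, Evi2b, Cdh5, Gm42476 and Mtnr1a. Cdh5 encodes the cadherin of vascular endothelium, Col15a1 a basement membrane collagen, and Heyl a Notch target of smooth muscle and vessels.

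S100b (ENSMUSG00000033208, chr10:76253853-76261159, plus strand), a calcium-binding protein used to stain Schwann cells and astrocytes and also made by cartilage and fat cells, stood between these genes and Mbp. It had 164 counts in low-passage DPCs and 35 in high-passage DPCs, and fell by 2.13 on the log2 scale (-2.76 to -1.66). In DSCs it had 216 counts at low passage and 144 at high passage, a log2 difference of -0.84 (-1.16 to -0.54), which was not called. The high-passage DSC library therefore held 3.16 CPM of S100b while Sox10, Ngfr, Cdh19 and Foxd3 were at 0 in it. S100b lies within bounds shared with Dip2a, a gene of the other strand with 1768 to 2620 counts per library and no shared exon bases, and whether counting used strand is not given in the sources used here.

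Mbp (ENSMUSG00000041607, chr18:82475146-82585637, plus strand) encodes myelin basic protein, and its locus also makes the Golli transcripts from an upstream start, which are known outside myelinating glia. It had 93 counts in low-passage DPCs and 97 in high-passage DPCs, and 219 and 257 in low-passage and high-passage DSCs. The log2 difference with passage was 0.10 (-0.33 to 0.52) in DPCs and -0.03 (-0.30 to 0.23) in DSCs, and both intervals held 0. The 2 passages of each cell type were nearly level and the cell types were apart. The annotation lists 16 Mbp transcripts, of which 4 start near the upstream start and 12 start further downstream, the first of them 79324 bases on. Counts per gene do not separate these transcripts.

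**Figure D2:**
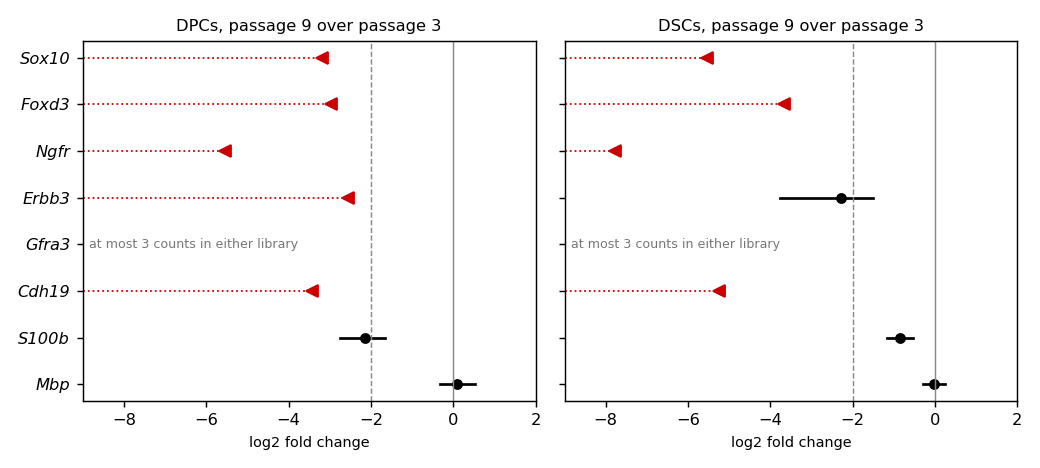
Log2 fold change of each gene, passage 9 over passage 3, in DPCs (left) and DSCs (right), with 95% counting intervals as bars, arrows at the bound set by 3 counts where the high-passage library had none, and dashed lines at 4-fold. Arrows mark 5 genes in DPCs and 4 in DSCs, and the Mbp intervals cross 0 in both panels.

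The design also sets papilla against sheath cells at each passage. At low passage all 7 genes compared had a lower level in DPCs than in DSCs, and the counting interval lay below 0 for 6 of them, against 30.2% of all genes. No gene of the group reached the 4-fold threshold, where 2.77% of all genes were lower and 1.52% higher in DPCs. The differences were largest for Sox10, at -1.94 on the log2 scale (-2.66 to -1.40), and Ngfr, at -1.86 (-2.15 to -1.61). Cdh19 (-1.43, -2.10 to -0.90), Mbp (-1.18, -1.56 to -0.84) and Erbb3 (-1.16, -2.12 to -0.43) followed. Their intervals overlapped those of Sox10 and Ngfr in each case but that of Mbp and Ngfr. S100b was closer to level, at -0.35 (-0.66 to -0.05), and with counts halved for both mates its interval held 0. Foxd3, also at -0.35, had an interval that held 0 (-1.20 to 0.44). The summed counts of the 8 genes were lower in DPCs by -1.28 on the log2 scale (-1.43 to -1.13), and by -0.95 without Ngfr.

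At high passage 3 genes of the group had counts to compare, and all 3 intervals lay below 0, against 36.5% of all genes. S100b stood at -1.65 (-2.27 to -1.15) and Mbp at -1.05 (-1.41 to -0.72), DPCs over DSCs. Erbb3, with 0 counts in DPCs and 9 in DSCs, was at least 2.36-fold lower in DPCs against the limit of 3 counts, and its interval ended at -0.64. It was called lower at -2.28, a value that rests on the prior count and lies past its bound. Of all genes, 3.91% were lower and 2.50% higher at 4-fold. With counts halved, the interval of Erbb3 also held 0. The log2 ratio of the sums, -1.29 (-1.58 to -1.0), lay within the interval of that at low passage. The Mbp difference between the cell types was likewise near its value at low passage. That of S100b was larger than at low passage, where it stood at -0.35 (-0.66 to -0.05). The sums at low and high passage also differed in makeup, since Mbp and S100b supplied nearly all of the counts at high passage.

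**Figure D3:**
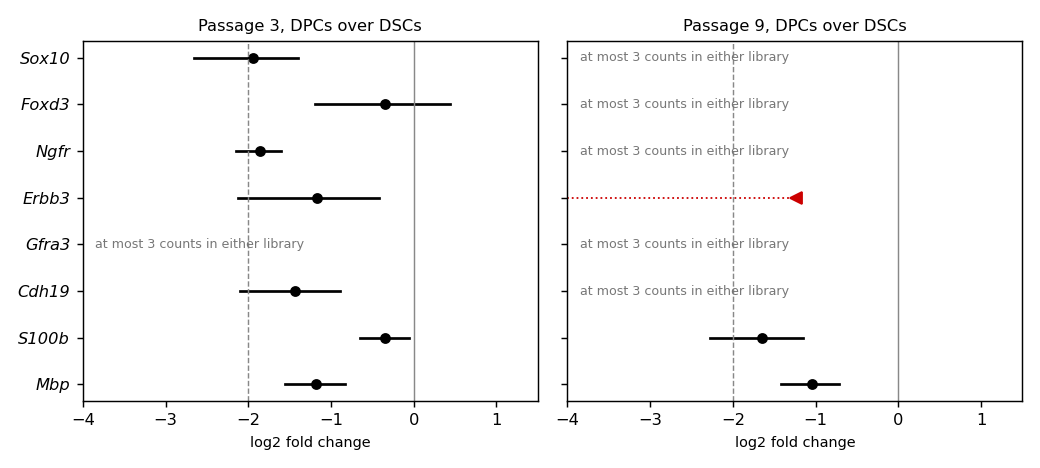
Log2 ratio of DPCs over DSCs for each gene at passage 3 (left) and passage 9 (right), with 95% counting intervals as bars, an arrow at the bound set by 3 counts, and dashed lines at 4-fold. All 7 points at passage 3 lie left of 0, with only the Foxd3 interval crossing it, and 3 genes can be drawn at passage 9.

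Likeness to Ngfr was measured as the Euclidean distance between log2 CPM profiles over the 4 libraries, each centred on its own mean. Sox10 (distance 2.25) ranked 2 and Cdh19 (2.30) ranked 3 of all genes compared, Foxd3 (3.42) ranked 10 and Erbb3 (4.68) ranked 53. S100b ranked 562 and Mbp 7506. The genes outside the group with the nearest profiles were Col15a1 (33 and 0 counts in DPCs at passages 3 and 9, then 101 and 0 in DSCs), Evi2b (48, 0, 57 and 0 in that order), Fbn2 (2119, 7, 1031 and 51), Adgrd1 (373, 0, 157 and 11) and Lrrtm1 (26, 0, 411 and 8). Their distances ran from 2.25 to 3.22. Fbn2, which encodes the microfibril protein fibrillin-2, had far more counts than the rest. With 4 libraries this is a ranking of profiles and not a correlation. The 8 genes were chosen from these same counts, so that the ranks of those near Ngfr follow in large part from the choice. Distances between genes at 0 also depend on the prior count added.

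The wider Schwann cell programme was read from a list of 62 other genes, made of myelin genes, Schwann and neural crest transcription factors, and genes of immature and non-myelinating Schwann cells. Of these, 41 passed the filter, 21 did not, and 6 had no count in any library. Their counts are given below as those of DPCs at low and high passage and then of DSCs at low and high passage. In DPCs 3 of the 41 rose and 3 fell with passage, 7.32% each where 5.58% and 4.36% of all genes did, with a median log2 difference of -0.13 against 0.03 over all genes compared. In DSCs 3 rose and 3 fell, 7.32% each where 2.67% and 1.16% of all genes did, with a median of -0.04 against 0.00. Among genes under the filter, Mal (0, 0, 14 and 0 counts), Mag (6, 0, 0 and 0), Gjc3 (4, 0, 13 and 0), Tfap2b (11, 0, 26 and 0) and Chl1 (0, 0, 4 and 0) had counts at low passage only, and Pou3f1 (0, 4, 0 and 9), Fa2h (0, 2, 0 and 0) and Mog (0, 1, 0 and 0) had counts at high passage only. No fold is given for these genes because they were under the filter, and they were named after their values were seen.

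Of 7 myelin genes compared, none passed 4-fold in DPCs and 1 rose in DSCs, with medians of -0.33 and 0.16. Pmp22, which many mesenchymal cells also express, had 6683, 2799, 6564 and 6644 counts (-1.22, -1.28 to -1.16, in DPCs and -0.25 in DSCs). Prx and Drp2, partners in the membrane scaffold of myelinating Schwann cells, differed by 1.65 and 1.15 in DPCs and 0.16 and 1.01 in DSCs. Cnp differed by -0.36 and 0.17. Pllp, with 16, 7, 0 and 18 counts, was the gene that rose in DSCs, at least 4.99-fold.

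Of 13 transcription factors compared, none passed 4-fold in DPCs and 1 fell in DSCs. That gene was Sox8, the close relative of Sox10, with 39, 17, 134 and 30 counts, with log2 differences of -1.08 (-2.08 to -0.31) in DPCs and -2.34 (-3.05 to -1.84) in DSCs. Sox2, a factor of immature Schwann cells that dermal papilla cells also express, had 1677, 1491, 269 and 178 counts. Its differences with passage were -0.13 and -0.85, and it was 2.67 higher on the log2 scale in DPCs than in DSCs at low passage, the reverse of the order of Sox10, and 3.39 higher at high passage, where Sox10 had no counts. Egr2, which drives myelination, had 209, 254, 401 and 1714 counts, with differences of 0.32 in DPCs and 1.83 in DSCs. Jun, which holds Schwann cells in the repair state and acts in many cells, differed by -0.91 and 0.45. Zeb2, Nab2 and Nfatc4 differed by -0.51 to 0.39 in either cell type.

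Of 21 genes of immature and non-myelinating Schwann cells, 3 rose and 3 fell in DPCs, and 2 rose and 2 fell in DSCs. Those that fell in DPCs were Ednrb (1104 to 124 counts, log2 -3.10), Scn7a (27 to 0, at least 8.78-fold) and Fabp7 (10 to 0), and those that rose were Cryab (2381 to 21314, log2 3.20), Sema3b (407 to 2130, 2.42) and Moxd1 (52 to 452, 3.11). In DSCs Scn7a (131 to 10, log2 -3.70) and L1cam (124 to 25, -2.47) fell and Itga4 (796 to 7052, 2.88) and Moxd1 (112 to 844, 2.63) rose. Scn7a, a sodium channel of non-myelinating Schwann cells, and Fabp7 are named because they complete these counts, after their values were seen. Scn7a was the listed gene that fell in both cell types. Gap43 differed by -0.66 in DPCs and 1.84 in DSCs, and Ncam1 by -1.09 and 0.14. Cdh2 differed by -0.06 and -0.10.

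Between the cell types the wider list had 4 of 41 genes higher in DPCs (9.76%, against 1.52% of all genes) and 5 lower (12.2%, against 2.77%) at low passage, with a median of -0.38. At high passage 3 were higher (7.32%, against 2.50%) and 9 lower (22.0%, against 3.91%), with a median of -0.39. The medians over all genes compared were 0.00 and -0.01. At low passage the median had the direction of that of the members compared, -1.18. At high passage the median of the members was 0, as most of them had no counts in either library. The list held genes on both sides, among them Sox2 and Ednrb higher and Gldn lower in low-passage DPCs. Gldn, an organizer of the nodes of myelinated fibres, had 61 counts in low-passage DPCs and 612 in low-passage DSCs and was chosen for mention after its values were seen.

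**Figure D4:**
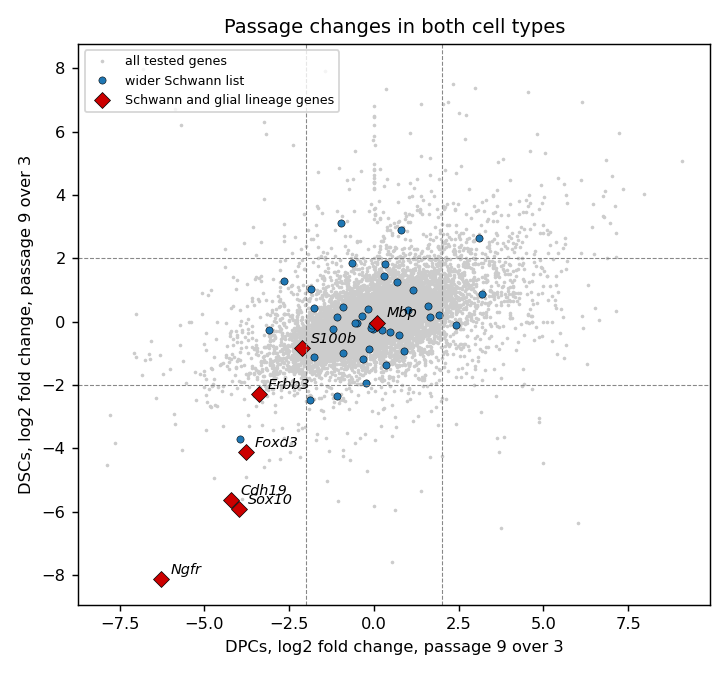
Log2 fold change with passage in DPCs (x axis) and DSCs (y axis) for the 16734 genes compared (grey), the wider Schwann list (blue) and the 7 members compared (red diamonds), with dashed lines at 4-fold. Positions of genes at 0 at high passage depend on the prior count added, and the blue points lie on all sides of the centre while 5 of the 7 diamonds lie below 4-fold on both axes.

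The partners of the receptors were followed in the other genes of their pathways. ErbB signalling genes had no 4-fold change among 7 compared in either cell type. Erbb2, the kinase partner of Erbb3, had 1073, 1211, 1324 and 1301 counts, with differences of 0.21 in DPCs and -0.29 in DSCs, so that the partner was level where Erbb3 was at 0 in high-passage DPCs. The ligand gene Nrg1 had 1302, 1182, 1750 and 4758 counts, with differences of -0.10 and 1.18. Egfr differed by -0.24 and 0.75, and the proteases that release or process neuregulins, Adam17 and Bace1, by -0.30 and 0.63 and by 0.33 and 0.73. Erbb4, the other neuregulin receptor, had no count in any library.

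Of 7 GDNF family genes compared, 2 rose in DPCs and 1 in DSCs. Artn, the ligand of the receptor that Gfra3 belongs to, rose from 31 to 197 counts in DPCs (by 2.63 on the log2 scale, 2.15 to 3.30) and had 132 and 134 in DSCs (-0.24, -0.60 to 0.11). Nrtn rose in both, by 2.93 in DPCs (4 to 42 counts) and 2.01 in DSCs (6 to 36 counts). Ret, the shared signalling receptor, had 28, 24, 130 and 394 counts. Gfra1 differed by 1.05 and 1.30 and Gdnf by -0.41 and 0.29.

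Among 12 neurotrophins and receptors compared, 2 rose in DPCs, and 1 rose and 1 fell in DSCs. Sorcs2, a receptor of the sortilin family that pairs with p75, had 1358, 5904, 5897 and 6412 counts and rose by 2.15 in DPCs (-0.14 in DSCs). Sort1, which binds proneurotrophins together with p75, differed by 1.80 and 1.01. Ntrk2, the high-affinity BDNF receptor, rose in DPCs (14 to 66 counts) and fell in DSCs (36 to 6). The ligand gene Bdnf had 1578, 2574, 2430 and 6430 counts, and Ntf5, which rose in DSCs by 2.87, had 31, 61, 8 and 85. Maged1, whose product binds the intracellular part of p75, differed by 0.30 and 0.23. Sorcs2, Sort1, Maged1 and Bdnf had 1358 counts or more in every library, also in those where Ngfr had none.

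S100b was set beside its family. Of 11 other S100 genes compared, 1 rose and 2 fell in DPCs, and 1 rose and 1 fell in DSCs, with medians of -0.97 and -0.12. S100a10 (6189, 1012, 5395 and 2983 counts) and S100a3 (118, 26, 61 and 16) fell in DPCs (log2 -2.57 and -2.07), and S100a3 fell in DSCs (-2.04). S100g rose in both, by 2.91 and 2.73. The abundant S100a4, S100a6 and S100a11, each with 9615 counts or more in every library, differed by -1.20, -0.97 and -0.91 in DPCs and by -0.12, -0.12 and -0.51 in DSCs. Like S100b, these 3 differed by more in DPCs than in DSCs, a contrast that was not tested.

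Several listed genes are also made by other cells, so markers of those cells were summed. For melanocytes, which share Sox10 and a neural crest origin, 5 of 10 listed genes, Tyr, Dct, Tyrp1, Mlana and Oca2, were at 0 in all 4 libraries. The melanocyte sum was 11.2 and 28.3 CPM in DPCs and 12.6 and 13 CPM in DSCs at low and high passage, and was mostly Mitf. For oligodendrocytes and astrocytes, Olig1, Olig2, Mobp and Aqp4 were at 0 in all 4, and the sum over 8 genes stayed between 2.90 and 4.24 CPM. For neurons, Snap25, Isl1, Nefl and Rbfox3 were at 0 in all 4 of 11 listed, and the sum, mostly Tubb3, was 14.9, 1.48, 20.1 and 11.1 CPM.

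The summed neuron, endothelial, immune and mesenchymal markers were all lower at high passage in both cell types, as was the sum of the 8 genes. The endothelial sum over 5 genes was 2.42 and 0.111 CPM in low-passage and high-passage DPCs and 5.54 and 0.987 in DSCs, and none of the 5 was at 0 in all libraries. Its gene Tek had 59, 0, 114 and 31 counts and Cdh5 had 16, 0, 45 and 0. The immune sum over 5 genes was 21.2, 9.03, 32.9 and 14 CPM, with Cd3e at 0 throughout. The mesenchymal sum over 9 genes was 18827 and 7464 CPM in DPCs and 27648 and 24644 in DSCs, and was mostly Col1a1 and Col1a2. Over the 9 genes the median log2 difference with passage was -1.31 in DPCs and 0.23 in DSCs. In DSCs the lower sum therefore does not describe the list as a whole, which held genes that rose and genes that fell. These 4 sums were highest in low-passage DSCs and lowest in high-passage DPCs, as was the sum of the 8 genes. The part of other cell types in the differences of the 8 genes was not tested.

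Keratinocyte markers summed to 1.31 to 2.07 CPM over 7 genes, with Krt5, Krt14, Krt1 and Cdh1 at 0 in all 4 libraries. Skeletal muscle markers summed to at most 0.285 CPM over 5 genes, with Pax7, Myf5 and Myod1 at 0. Perineurial and nerve fibroblast markers, many of which fibroblasts share, summed to 235, 330, 183 and 264 CPM over 9 genes and were higher at high passage in both cell types, with Tenm2 and Lypd2 at 0.

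**Figure D5:**
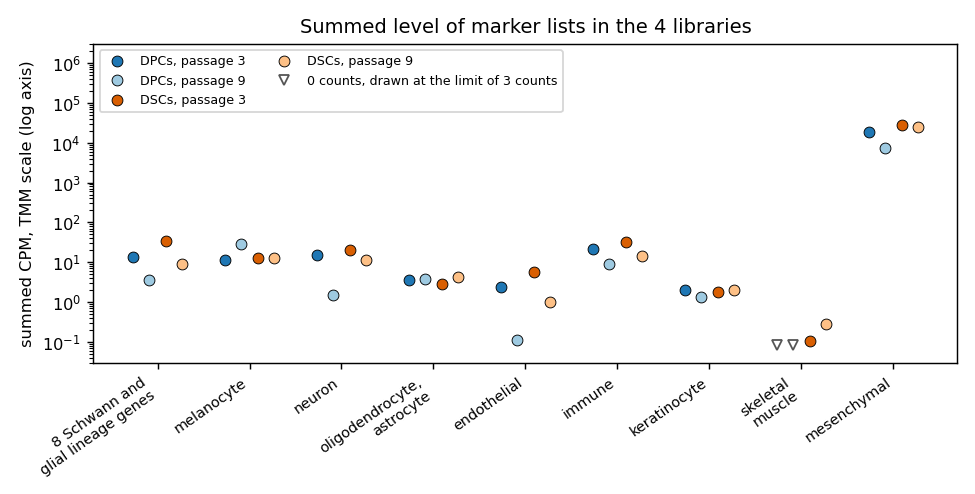
Summed CPM of the 8 Schwann and glial genes and of marker lists of other cell types in the 4 libraries, on a log axis, 1 point per library, with open triangles at the limit of 3 counts. The neuron, endothelial, immune and mesenchymal points, like those of the 8 genes, are highest in low-passage DSCs and lowest in high-passage DPCs, while the oligodendrocyte and astrocyte points stay within 2.90 to 4.24 CPM. The mesenchymal points are mostly Col1a1 and Col1a2, and the median log2 difference of that list with passage in DSCs was 0.23.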

How the data were processed

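RNA-seq was done on DPCs and DSCs at passage 3 and passage 9, as 1 library per group. The authors deposited raw counts per gene for all 4 libraries in whole numbers, and FPKM values per library, which the authors normalized for transcript length and depth. The study's methods give poly-T selection and paired-end sequencing with an NEBNext kit, while the labels name a TruSeq kit. The submitters' processing notes list Bowtie 0.12.2 and the builds mm8 and mm9 without their role. Of 51826 gene IDs, 51633 were found in GENCODE M21 (GRCm38), and 94.2% of those had the same position. The counting program and its use of strand were not given in the sources used here.

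TMM factors from edgeR 4.0.16, run with limma 3.58.1 under R 4.3.3, scaled the counts. Genes with a mean count of at least 10 were compared, and differences of log2 CPM used a prior count of 2. A gene was called at 4-fold. Bounds against a library at 0 used 3 counts per library, and intervals were exact Clopper-Pearson intervals of the share that 1 of the paired libraries held of their reads (scipy 1.17.1). Counting intervals of FPKM were the exact Poisson bounds of the count. There was no test, since each group had 1 library. The differences, calls and intervals were checked on simulated counts.

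The 8 genes and the lists were chosen with earlier results of these data known. Named genes were all 8, and from each pathway list the 4 of the highest mean count, up to 6 called with passage, and fixed genes of the lineage (among them Pmp22, Egr2, Gap43, Sox2, Erbb2, Nrg1, Ret and Artn, with some that are not reported here), while lists of other cell types are given as sums. Likeness to Ngfr gave the 5 nearest genes. Alternatives were DESeq2 1.42.0 size factors, upper-quartile factors, total counts, no filter, a mean count of at least 100, prior counts of 0.5 and 10, FPKM with pseudocounts of 0.1 and 1, and counts halved.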

Additional observations from a re-analysis of the deposited data

Results flagged for a closer look

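For 12 named genes of the wider lists, the counting intervals of the passage change lay on opposite sides of 0 in DPCs and DSCs. The difference between the cell types was not tested, because each group had 1 library. None of the 8 Schwann and glial lineage genes was among these 12. Listed genes outside the naming rule, such as Tfap2a, Pax3 and Ptprz1, had the same pattern. The share of all genes with this pattern is not given here. Intervals on 1 side of 0 were common, with 37.8% of all genes below 0 in DPCs and 32.9% in DSCs. Each value below is the log2 passage change in DPCs minus that in DSCs. It was above 0, with a higher level at high passage in DPCs and a lower one in DSCs, for Ntrk2 (4.58), Sema3b (2.54), Sorcs2 (2.30) and Erbb2 (0.50). It was below 0 for Gap43 (-2.49), Jun (-1.36), Ncam1 (-1.23), Egfr (-0.98), Adam17 (-0.93), Gdnf (-0.70), Nfatc4 (-0.57) and Cnp (-0.53). Erbb2, Egfr and Adam17 belong to the pathway of Erbb3, and Ntrk2 and Sorcs2 to that of Ngfr.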

How the results depend on the processing

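Of 12 calls among the 8 genes, recomputed under 10 alternatives, all 106 values that could be computed kept their sign, 83 stayed past 4-fold and 23 did not. For most of these calls 1 library had 0 counts, so that the sign was fixed under every setting. The number called lower with passage in DPCs, 6 as reported, was 4 with halved counts and 2 with a mean count of at least 100. It was 2 with a prior count of 10, 2 with FPKM and a pseudocount of 0.1, and 0 with a pseudocount of 1. The number in DSCs, 5 as reported, was 4 with a prior count of 10 and 4 with FPKM and a pseudocount of 0.1. It was 3 with halved counts, 1 with a mean count of at least 100, and 1 with FPKM and a pseudocount of 1. For high-passage DPCs over DSCs, 1 as reported, it was 0 under each of these. These settings drop the genes of few counts or shrink their folds by construction. The wider list gave 3 in DPCs (6 as reported) with the FPKM pseudocount of 1. In DSCs (6) it gave 12 with no filter, 2 with a mean count of at least 100 and 1 with that pseudocount. Between the cell types it gave 5 with a mean count of at least 100 and 4 with that pseudocount at low passage (9), and 5 with that pseudocount at high passage (12). The log2 ratio of the summed counts was -1.42 in DPCs, -1.08 in DSCs and -0.95 between the cell types at low passage without Ngfr, and -0.95 for the last with summed FPKM. The FPKM pseudocount of 0.1 moved the median of all genes by 0.10 at high passage between the cell types. No paired analysis was possible because each group has 1 library, and no replicate could be left out. Counts of 18 to 33 for Erbb3, Foxd3, Sox10 and Cdh19 in low-passage DPCs limit the size of fold that can be bounded.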
